A study of Danio rerio with 6 samples.

Results

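lepb is one of the leptin genes of the zebrafish (Danio rerio), listed under the identifier ENSDARG00000045548. It was taken by name as 1 row of a count table of 15419 genes, with the other leptin gene lepa and the leptin receptor gene lepr read beside it. RNA came from dissected guts of wild-type (WT) larvae. In 3 libraries, here called transected, the gut had been cut across 24 h before collection. The other 3 libraries, with no cut named in their labels, are here called control. The labels place the larvae at 5 days post-fertilization without saying whether that was their age at the cut or at collection. Each library pooled 10 to 15 guts, so 1 library stands for a pool and not for 1 larva, and no transgene or mutation was named for either group.

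Leptin is a small helical cytokine, best known in mammals as the hormone by which fat stores inform the brain. It binds a class I cytokine receptor, the receptor activates the kinase JAK2, JAK2 activates the transcription factor STAT3, and STAT3 induces SOCS3, which damps the same receptor. In zebrafish lepb is also known from regeneration studies, because it is induced in the injured fin and heart and a DNA element near it drives expression in regenerating tissue.

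The library sums ran from 21525093 to 25131242 counts, with 12838 to 13140 genes detected in each. The tissue label was checked on enterocyte markers, of which 15 of 19 were in the table. They summed to 30198, 34291 and 33732 counts after library scaling (CPM, defined with the lepb values) in transected guts against 39414, 40534 and 36739 in control guts. DESeq2, an alternative to the main test, called 2 of them lower, where it called 0.502% of all genes lower. fabp2, a defining enterocyte gene, was nearly unread, at 11, 4 and 8 counts against 8, 4 and 3 counts. Replicate 1 was the highest library of both groups in jun, junba, junbb and fosab, genes of the AP-1 transcription factor, and transected replicate 1 was low in the islet hormone genes sst1.1 and gcgb, as given with those genes. Other genes of these kinds differed: fosb, fosl1a, fosl2 and atf3 were lowest in control replicate 1. gcga, a proglucagon gene, had 54.8 CPM in transected and 54.5 CPM in control replicate 1. All these genes were named after their values were seen. With that limit, lepb and the genes of its pathway are given with and without the replicate 1 libraries where a call turned on them.

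lepb was almost undetected in control guts and was present in every transected library. It had 11, 84 and 38 counts in transected replicates 1, 2 and 3, against 0, 1 and 2 counts in control replicates 1, 2 and 3. CPM divides each count by its library total, scaled by the trimmed mean of M-values (TMM). In these units lepb stood at 0.423, 3.79 and 1.64 CPM in transected guts against 0, 0.0465 and 0.0905 CPM in control guts. The lowest transected library lay above the highest control library, so the groups did not overlap. The same was so for 7.48% of genes tested in the higher direction. By difference in CPM, transected replicate 1 was nearer to the control libraries than to transected replicate 2. By ratio this did not hold against every control library. These are bulk libraries, in which more cells of a type and more RNA per cell cannot be told apart.

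**Figure D1:**
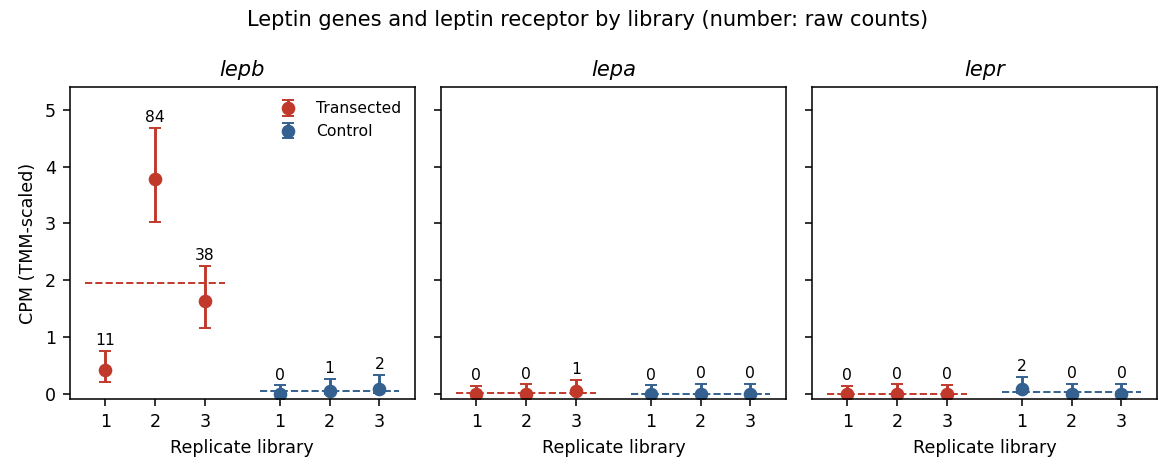
CPM of lepb, lepa and lepr in each library, transected in red and control in blue, with exact Poisson 95% intervals as bars, group means as dashed lines and raw counts as numbers. The lepb counts of 11, 84 and 38 stand over 0, 1 and 2, while lepa and lepr stay at 0 to 2 counts in every library.

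The group means of lepb were 1.95 ± 1.70 CPM in transected guts and 0.0457 ± 0.0453 CPM in control guts (SD, n = 3 libraries each). Summed over libraries there were 133 counts in transected and 3 in control guts, a ratio of 42.4 after scaling, with an exact 95% interval of 14.2 to 208 that covers counting error only. The ratio was 22.7 without transected replicate 2, the highest library, 27.1 without control replicate 1 and 86.1 without control replicate 3. In pair 2, the libraries numbered 2 in both groups, the ratio was 81.5 (14.2 to 3256 by counting error), and in pair 3 it was 18.1 (4.68 to 155). In pair 1 the control library had 0 counts, and transected replicate 1 stood at 3.48 times the level of 3 counts, the limit set here for a count of 0. The exact 95% interval of that control library reached higher, to 0.149 CPM against 0.1213 CPM for 3 counts. The exact 95% lower limit of the pair 1 ratio, counting error included, was 2.38. All 3 pairs had more lepb in the transected library, which already follows from the groups not overlapping. The 3 control counts fix the sizes only loosely, since 1 count was worth 0.0384 to 0.0465 CPM.

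edgeR's quasi-likelihood test, fitted over 11466 genes, gave lepb a log2 fold change of 5.29 (SE 1.14). This missed the threshold of 0.05 after adjustment over all of them (edgeR, Benjamini-Hochberg, adjusted p = 0.387, unadjusted p = 0.00303, n = 3 against 3). The exact two-sided permutation p of the CPM values was 0.1, the smallest that 3 against 3 libraries allow. By fold change lepb ranked 6 among the 11466 genes tested, and by edgeR p it ranked 88. The rank by fold change rests on 3 control counts. It leaves out genes below the filter, such as stc1l, with 736 counts in transected and 0 in control guts. The edgeR test called 0.0174% of genes higher and 0.0% lower, where an unadjusted p below 0.05 was reached by 4.32% in the higher and 3.55% in the lower direction. The 2 genes called were plekhs1, a gene for a signalling adaptor, with a log2 fold change of 5.73 (SE 0.38; edgeR adjusted p = 0.0301), and LOC100535095, with 5.97 (SE 0.43; edgeR adjusted p = 0.0305). Of 17 alternatives, 11 called plekhs1 and 10 called LOC100535095, with adjusted p up to 0.437 for both. limma-voom called 0 genes in either direction.

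DESeq2, run as an alternative, called lepb higher, with a log2 fold change of 5.44 (SE 1.19) and an adjusted p of 0.00124. DESeq2 called 0.765% of genes higher and 0.502% lower. With the replicate numbers as pairs, lepb passed in DESeq2 (log2 fold change 5.30, adjusted p = 0.000106) and missed the threshold in edgeR (5.21, adjusted p = 0.137). Those paired fits called 1.37% of genes higher and 1.06% lower in DESeq2, and 0.0262% higher and 0.00872% (1 gene) lower in edgeR. Without the replicate 1 libraries of both groups lepb passed in edgeR at 5.18 (SE 0.72, adjusted p = 0.0339), in a fit that called 0.866% of genes higher and 1.5% lower. That fit kept only replicates 2 and 3 of each group. It left out the transected library with the least lepb, which by itself narrows the spread. Of 16 alternatives that gave lepb a value, 3 called it (DESeq2, paired DESeq2 and this fit), over a range of adjusted p from 0.000106 to 0.994. All 16 had a positive log2 fold change, from 4.38 without transected replicate 2 to 6.17 without control replicate 3. The shared sign follows from the groups not overlapping, so only the sizes and calls could vary.

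lepb entered the edgeR test by a small margin. A gene needed at least 0.429 CPM, before TMM scaling, in 3 libraries, and lepb reached this in exactly 3, with 0.438 CPM in transected replicate 1. It therefore entered the test only through its transected libraries.

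**Figure D2:**
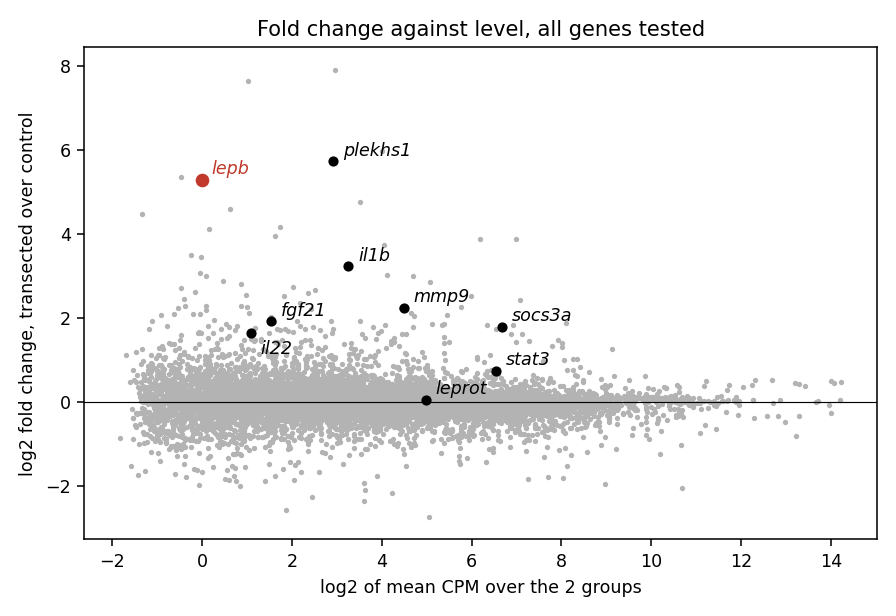
log2 fold change (transected over control) against log2 of the mean CPM of the 2 groups for the genes tested, with lepb in red and other named genes in black. lepb sits at a log2 fold change of 5.29 among genes of low level, while leprot, with many more counts, lies at 0.04.

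The spread among transected libraries was larger than counting error. Transected replicate 2 held 8.97 times as much lepb as transected replicate 1 (95% interval 4.76 to 18.6, counting error only) and 2.31 times as much as transected replicate 3 (1.56 to 3.49). Transected replicate 3 held 3.88 times as much as transected replicate 1 (1.94 to 8.41). The order was therefore replicate 2, then 3, then 1, each step clear of counting error, with 1 pool of guts behind each value. Only a few orders are possible among 3 libraries, and the share of all genes with this order was not counted. Where other genes share it, that is description only. The coefficient of variation of lepb over the transected libraries was 87.4%.

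The other leptin gene and the receptor were barely read. lepa, the other leptin gene (ENSDARG00000091085), had 0, 0 and 1 counts in transected guts against 0, 0 and 0 in control guts. lepr, the receptor (ENSDARG00000070961), had 0, 0 and 0 counts in transected guts against 2, 0 and 0 in control guts. Both were below the filter, and a count of 0 allows up to 0.1153 to 0.1395 CPM in these libraries. No fold change is given for either gene.

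A low row in this table does not show that a transcript was missing. ins, the insulin gene, had 1 count in transected and 0 in control guts, although the islet hormone genes sst1.1 and gcgb averaged 34.6 and 15.6 CPM in control guts. In all, 1648 of the 15419 listed genes had 0 counts in every library. Whether lepr and lepa were low in the tissue or in the counting was not tested.

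leprot, which encodes a small protein that regulates how much leptin receptor reaches the cell surface in mammals, was well measured. It had 28.7, 32.9 and 34.9 CPM in transected guts against 31.6, 30.3 and 31.7 CPM in control guts. The groups overlapped, with a log2 fold change of 0.04 (SE 0.11; edgeR adjusted p = 0.965). The sign turned to -0.019 without transected replicate 3.

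Among the kinases, jak2a and jak2b encode JAK2, which the leptin receptor uses. jak2a averaged 82.6 ± 3.34 CPM in transected and 83.5 ± 14.0 CPM in control guts, with a log2 fold change of -0.015 (SE 0.14; edgeR adjusted p = 0.989). The sign of jak2a turned to 0.0044 when library size alone was used for scaling, and to 0.11 without control replicate 2. jak2b averaged 52.6 ± 2.36 against 57.2 ± 1.11 CPM, a log2 fold change of -0.12 (SE 0.08; edgeR adjusted p = 0.797). Its 3 transected libraries lay just below its 3 control libraries, as did those of 6.38% of genes tested.

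The transcription factor and the feedback inhibitor of the pathway came next. stat3 had 66.4, 142 and 141 CPM in transected guts against 49.98, 75.3 and 85.3 CPM in control guts. Transected replicate 1 lay within the control range, and the log2 fold change of 0.73 (SE 0.34) missed the threshold (edgeR adjusted p = 0.683). Without the replicate 1 libraries of both groups stat3 passed at 0.80 (edgeR adjusted p = 0.0206), and it passed in DESeq2 with the numbers as pairs (0.67, adjusted p = 0.00802).

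socs3a, one of the SOCS3 genes that STAT3 induces, had 122, 203 and 154 CPM in transected guts against 54.03, 46.1 and 38.9 CPM in control guts. Among transected libraries its order was that of lepb, with replicate 2 highest and replicate 1 lowest, over a far smaller range. Its log2 fold change of 1.78 (SE 0.22) missed the threshold in edgeR (adjusted p = 0.122). It passed in DESeq2 (adjusted p = 5.38e-10), and in edgeR without the replicate 1 libraries (2.06, adjusted p = 0.0174). The second copy, socs3b, averaged 40.7 ± 6.70 against 32.0 ± 7.10 CPM with overlapping groups, a log2 fold change of 0.35 (SE 0.20; edgeR adjusted p = 0.751). SOCS3 genes are induced by many cytokines besides leptin.

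Of 34 written genes of leptin receptor signalling, 28 were in the table and 22 were tested. In edgeR 0 passed in either direction. An unadjusted edgeR p below 0.05 was reached by 1 in the higher direction, socs3a, and 0 in the lower, against 4.32% and 3.55% of all genes. DESeq2 called socs3a alone, where it called 0.765% of all genes higher and 0.502% lower. The median log2 fold change of the 22 was -0.02, against 0.00 (0.00264) over all genes tested, with 10 positive and 12 negative. stat5a, a STAT gene that leptin and growth hormone receptors also use, averaged 8.29 ± 0.81 against 10.8 ± 1.78 CPM, with a log2 fold change of -0.38 (SE 0.17; edgeR adjusted p = 0.661). grb2a and sh2b1, which encode adaptors, had 0 counts throughout.

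**Figure D3:**
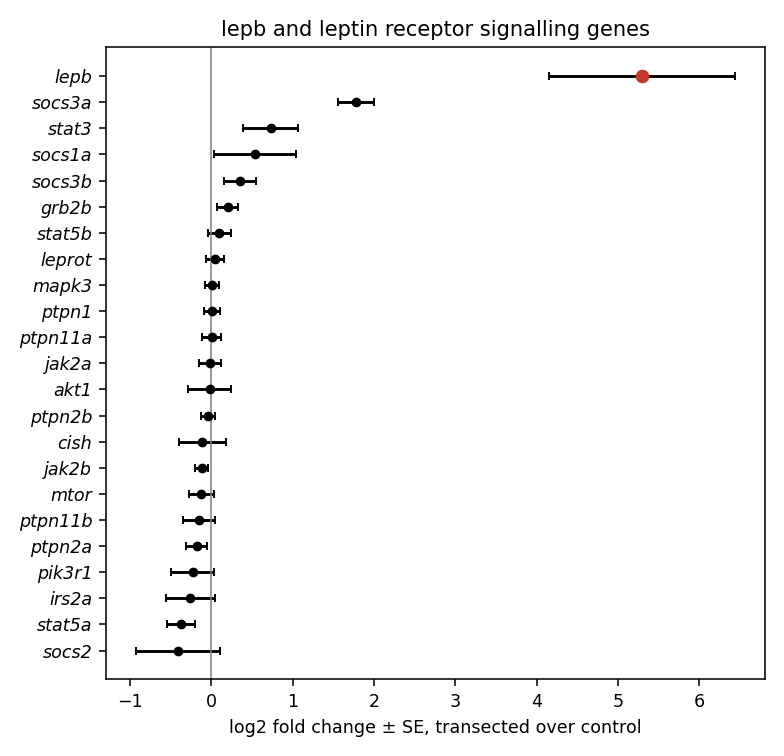
log2 fold change with SE (transected over control) for lepb, in red, and the 22 tested genes of leptin receptor signalling, in black, in order of size. lepb stands at 5.29 and socs3a at 1.78, while jak2a, jak2b and leprot lie at -0.015, -0.12 and 0.04.

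Relatives of leptin and its receptor were next. The helical cytokines of the gp130 and growth hormone families use the same JAK and STAT proteins, and 28 of 33 written members were in the table, 18 of them tested. None passed in edgeR or DESeq2 (0 in each), and the median log2 fold change was 0.07. An unadjusted edgeR p below 0.05 was reached by 3 in the higher and 1 in the lower direction, against 4.32% and 3.55% of all genes. il6, the interleukin-6 gene, had 8, 4 and 2 counts in transected guts against 0, 0 and 0 in control guts. It was named after its values were seen, and lay below the filter. Like lepb it was near 0 in control guts, but its highest library was transected replicate 1.

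The 3 members with the smallest edgeR p were receptors. lifrb, a receptor for leukaemia inhibitory factor, averaged 14.6 ± 2.37 against 9.69 ± 0.39 CPM (log2 fold change 0.60, SE 0.15; edgeR adjusted p = 0.415). csf3r, the receptor of the granulocyte growth factor and a gene of neutrophils, had 3.496, 6.63 and 6.51 CPM in transected guts against 3.36, 2.74 and 2.08 CPM in control guts (log2 fold change 1.02, SE 0.32; edgeR adjusted p = 0.507), and passed without the replicate 1 libraries (1.44, edgeR adjusted p = 0.0390). prlrb, a prolactin receptor, averaged 2.36 ± 0.26 against 1.35 ± 0.33 CPM (log2 fold change 0.81, SE 0.27; edgeR adjusted p = 0.544). The groups of these 3 receptor genes did not overlap, but picking by the smallest edgeR p favours such genes, so this is no separate result. Of the 18 tested members, 3 did not overlap in the higher and 1 in the lower direction, against 7.48% and 6.38% of genes tested.

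Because lepb is known from fin and heart regeneration, other genes known to be induced there were read beside it. Of 54 written, 52 were in the table and 44 were tested. In edgeR 0 passed in either direction, and an unadjusted p below 0.05 was reached by 9 in the higher and 1 in the lower direction, against 4.32% and 3.55% of all genes. The median log2 fold change was 0.38 (0.27 without the replicate 1 libraries). The 44 had 35 positive and 9 negative values, and DESeq2 called 3 higher and 0 lower, against 0.765% and 0.502% of all genes.

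Those 3 were il1b, mmp9 and mmp13a, which encode interleukin-1 beta, a gelatinase and a collagenase. il1b had 11.4, 23.7 and 16.8 CPM in transected guts against 2.35, 1.53 and 1.63 CPM in control guts, in the same order of transected libraries as lepb (log2 fold change 3.23, SE 0.33; edgeR adjusted p = 0.121). mmp9 had 41.7, 29.7 and 39.7 CPM against 11.5, 6.51 and 5.48 CPM, with transected replicate 2 the lowest of its group (2.24, SE 0.31; edgeR adjusted p = 0.149). mmp13a had 12.7, 7.31 and 9.70 CPM against 2.59, 1.07 and 0.996 CPM, again with transected replicate 2 lowest (2.66, SE 0.43; edgeR adjusted p = 0.231). Without the replicate 1 libraries all 3 passed in edgeR (adjusted p = 0.00799, 0.00956 and 0.00976 for il1b, mmp9 and mmp13a). They had been picked by DESeq2 calls on libraries that this fit shares, so these calls are no separate result. The fit called 5 of the list higher and 0 lower, against 0.866% and 1.5% of all genes. The other genes it called were junba and timp2b (log2 fold change 3.99, edgeR adjusted p = 0.00597), whose groups overlapped over all libraries. Both metalloprotease genes ran in the opposite order to lepb among the transected libraries.

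The list also held 8 genes of AP-1 and its relatives, transcription factors known to be induced early after injury, which are named after their values were seen. All 8 were highest among transected libraries in replicate 1, where lepb was lowest. Among control libraries jun, junba, junbb and fosab were highest in replicate 1, while fosb, fosl1a, fosl2 and atf3 were lowest there. junbb had 1043, 151 and 104 CPM in transected guts against 235, 49.7 and 67.1 CPM in control guts. junba had 286, 50.3 and 44.2 CPM against 63.4, 19.2 and 23.9 CPM, and fosab had 924, 111 and 62.2 CPM against 379, 31.2 and 31.6 CPM. In contrast fosl1a had 210, 41.7 and 29.2 CPM in transected guts against 18.1, 50.8 and 65.7 CPM in control guts. The edgeR adjusted p-values of junbb, junba and fosab were 0.749, 0.686 and 0.885. All 3 passed in DESeq2 with the numbers as pairs (adjusted p = 0.000145, 1.82e-05 and 7.37e-08 for junbb, junba and fosab), and junba also passed in edgeR without the replicate 1 libraries (1.12, adjusted p = 0.0258).

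Leptin is also a hormone of energy balance, and 29 of 32 written hormones, receptors and targets of that kind were in the table, 24 of them tested. In edgeR 0 passed, and the median log2 fold change was -0.14, with 9 positive and 15 negative. An unadjusted edgeR p below 0.05 was reached by 2 in the higher and 1 in the lower direction, against 4.32% and 3.55% of all genes. fgf21, a hormone gene induced by fasting and cell stress in mammals, had 4.88, 5.55 and 3.405 CPM in transected guts against 1.09, 1.26 and 1.31 CPM in control guts. Its log2 fold change of 1.91 (SE 0.26) missed the threshold in edgeR (adjusted p = 0.149) and passed in DESeq2 (adjusted p = 1.25e-05). It was the 1 member that DESeq2 called, where DESeq2 called 0.765% of all genes higher and 0.502% lower.

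adipor2, a receptor for the fat hormone adiponectin, had 135, 204 and 262 CPM in transected guts against 306, 336 and 320 CPM in control guts (log2 fold change -0.68, SE 0.23; edgeR adjusted p = 0.555). Its groups did not overlap, as was so for 6.38% of genes tested in the lower direction. Being picked for a small edgeR p favours this, so it is no separate result. adipor2 passed in DESeq2 with the numbers as pairs (adjusted p = 0.0279). vip, a neuropeptide gene of the gut wall, had 14.3, 32.2 and 22.9 CPM against 13.9, 15.4 and 13.7 CPM, overlapping at transected replicate 1 (0.69, SE 0.28; edgeR adjusted p = 0.630). The transected libraries of fgf21 were more even than those of lepb.

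The genes that lie around lepb differed far less between groups. In the RefSeq gene order of another assembly, GRCz12tu, no other gene overlapped lepb, and the 5 nearest counted genes on each side were read. They include impdh1b, a gene of guanine nucleotide synthesis, and snd1, a gene for an RNA-binding nuclease, whose human counterparts also neighbour the leptin gene. impdh1b had a log2 fold change of 0.14 (SE 0.21; edgeR adjusted p = 0.927) and snd1 of 0.14 (SE 0.16; edgeR adjusted p = 0.908).

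Farther out before lepb, rap1b, a small GTPase gene, stood at 0.14 (SE 0.14) and mcat, a gene of mitochondrial fatty acid synthesis, at -0.22 (SE 0.15). bik, an apoptosis gene, stood at 0.10 (SE 0.13) and cbll1, a ubiquitin ligase gene, at -0.33 (SE 0.19). After lepb, pax4, a transcription factor gene of islet cells, stood at 0.34 (SE 0.29), hgfa, the hepatocyte growth factor gene, at -0.46 (SE 0.27) and the calcium channel subunit gene cacna2d1a at -0.09 (SE 0.18). mir129-1 had 0 counts. Over the 9 tested neighbours edgeR adjusted p ran from 0.756 to 0.959. Several reference genes between lepb and these neighbours were not used here.

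**Figure D4:**
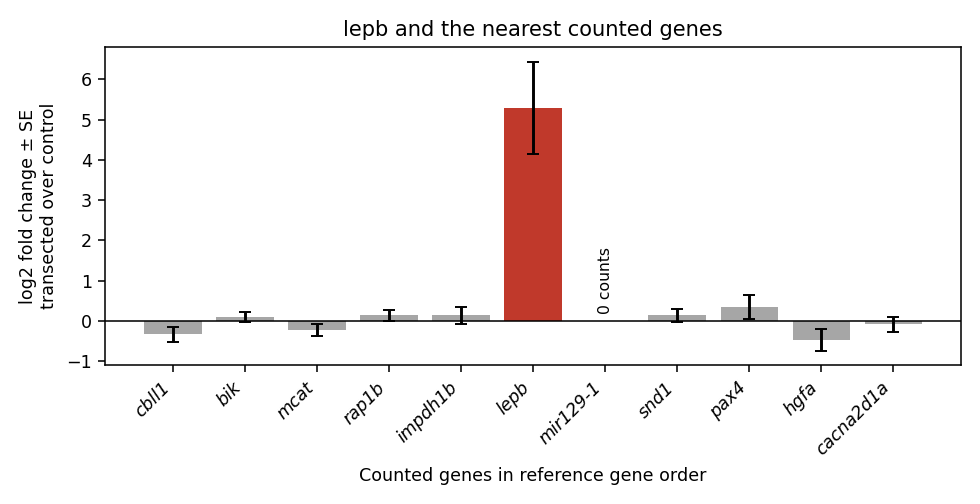
log2 fold change with SE (transected over control) for lepb, in red, and the 5 nearest counted genes on each side, in grey, in reference gene order and not to scale in distance. lepb stands at 5.29, and its tested neighbours lie between -0.46 and 0.34.

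The genes whose levels ran most like lepb were picked by Pearson's r of log2 CPM over the 6 libraries. This is a description, since the libraries share group and replicate number, and a gene that separates the groups gains a high r from that alone. Of 11465 other genes tested, 158 had an r of at least 0.9. The 10 highest with an established name were chst11 (0.995), osbpl9 (0.993), llgl2 (0.989), baxb (0.988), atic (0.987), klc3 (0.986), jak1 (0.986), pmm2 (0.985), cdc37 (0.982) and tes (0.981). All 10 ran in the order replicate 2, 3, 1 among transected libraries, and in all 10 the groups did not overlap. Picking genes by r with lepb over these same 6 libraries selects for both traits, so neither is a separate result. Over all genes tested, 7.48% did not overlap in the higher direction.

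Their differences were far smaller than that of lepb, with log2 fold changes of 0.18 to 0.90. baxb, related to the apoptosis gene BAX, had 9.26, 13.3 and 11.6 CPM in transected guts against 6.79, 6.74 and 6.84 CPM in control guts (log2 fold change 0.74, SE 0.16; edgeR adjusted p = 0.387). jak1, a kinase gene that cytokine receptors of the IL-22 and gp130 families use, had 76.8, 91.6 and 90.5 CPM against 67.4, 69.9 and 70.0 CPM (0.32, SE 0.10; edgeR adjusted p = 0.511). chst11, a chondroitin sulfotransferase gene, had 4.42, 6.27 and 5.17 CPM against 3.24, 3.49 and 3.49 CPM (0.63, SE 0.19; edgeR adjusted p = 0.502). Of the 10, edgeR and DESeq2 called 0. Without the replicate 1 libraries edgeR called baxb (0.86, adjusted p = 0.0476), atic (0.50, adjusted p = 0.0488) and tes (0.71, adjusted p = 0.0421), in a fit that called 0.866% of all genes higher. Picking genes by r with lepb favours genes that separate the groups. These calls are therefore no separate result and cannot be set against the share of all genes.

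The remaining 7 included tes, a focal adhesion gene, with a log2 fold change of 0.61 (SE 0.16) and atic, a purine synthesis gene, with 0.45 (SE 0.11). llgl2, an epithelial polarity gene, stood at 0.33 (SE 0.12), cdc37, a co-chaperone gene for kinases, at 0.29 (SE 0.11) and pmm2, a mannose metabolism gene, at 0.46 (SE 0.15). klc3, a kinesin light chain gene, stood at 0.90 (SE 0.36) and osbpl9, a lipid-binding protein gene, at 0.18 (SE 0.09). The choice depended on settings: with a prior count of 0.5 in place of 2, 5 of the 10 were again among the highest, and with library size alone for scaling 2 of the 10 were. il22, the cytokine gene of the study's title, had an r of 0.959 and ranked 36 among all 11465 genes. Unlike the choice of the 10, this rank counts clone- and locus-named genes. il22 had 1.58, 4.74 and 3.36 CPM in transected guts against 0.526, 1.16 and 1.40 CPM in control guts (log2 fold change 1.64, SE 0.52; edgeR adjusted p = 0.515). It passed in DESeq2 with the numbers as pairs (adjusted p = 0.0151).

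**Figure D5:**
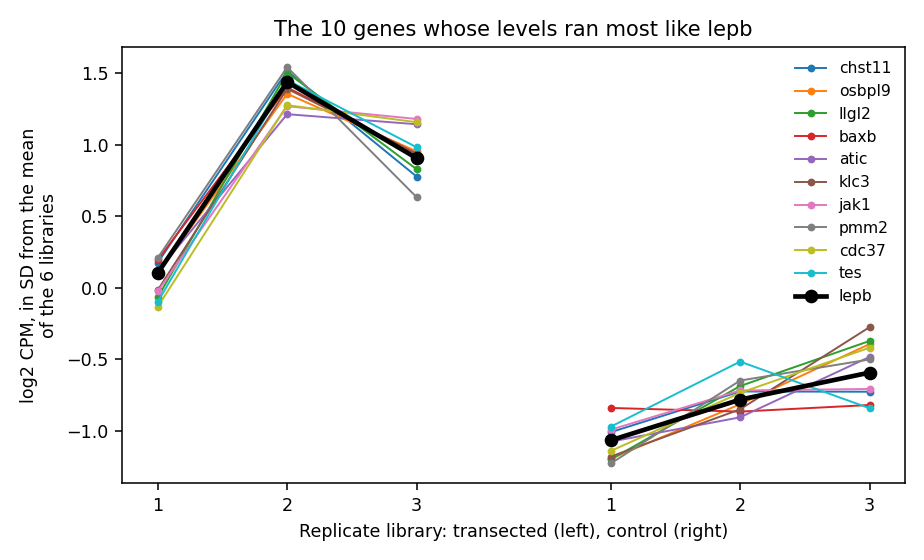
log2 CPM of lepb (thick black line) and of the 10 genes most like it, each in SD from its own mean over the 6 libraries, by replicate library, transected left and control right. The scale hides size: the log2 fold change was 5.29 for lepb and 0.18 to 0.90 for the 10 genes.

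Markers of several cell types differed between libraries beside lepb, though edgeR called 0 genes in each of the 9 marker lists. Without the replicate 1 libraries edgeR called 8 of 13 neutrophil, 3 macrophage, 2 fin fold, 2 epidermis and 1 skeletal muscle markers higher and 1 enterocyte marker lower, where it called 0.866% of all genes higher and 1.5% lower. Neutrophil markers, 13 of 15 in the table, summed to 398, 714 and 591 CPM in transected guts against 316, 292 and 270 CPM in control guts (12 genes, without cpa5, also a pancreatic enzyme gene). This sum had the order of lepb among transected libraries, but its members differed. mpx was highest in transected replicate 2, while mmp9, mmp13a, lyz and npsn were lowest there, at 29.7, 7.31, 5.503 and 11.6 CPM. DESeq2 called 4 of the list higher, where it called 0.765% of all genes higher, and 2 of these, mmp9 and mmp13a, are also in the regeneration list. mpx, the neutrophil myeloperoxidase gene, had 18.1, 249 and 143 CPM in transected guts against 21.9, 2.56 and 2.99 CPM in control guts, so control replicate 1 lay above transected replicate 1, unlike lepb (log2 fold change 3.89, SE 1.23; edgeR adjusted p = 0.515, and 0.0315 without the replicate 1 libraries). The part of neutrophils in the lepb difference was not tested.

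Macrophage markers, 14 of 17 in the table, summed to 263, 278 and 317 CPM in transected guts against 171, 242 and 204 CPM in control guts, without overlap. DESeq2 called 4 of them higher, against 0.765% of all genes, and mpeg1.1, c1qa, c1qb and c1qc were at 0 counts throughout. Fin fold mesenchyme markers, 12 of 14 in the table, summed to 478, 327 and 494 CPM against 354, 122 and 350 CPM over 11 genes that no other marker list held. Among them and1, an actinodin gene of the fin fold, had 88.3, 70.9 and 112 CPM in transected guts against 20.9, 4.60 and 30.9 CPM in control guts, with transected replicate 2 lowest where lepb was highest. Epidermis markers, 17 of 20 in the table, summed to 5664, 3279 and 3494 CPM against 3611, 2436 and 2594 CPM, with transected replicate 1 highest where lepb was lowest. Both of these sums overlapped between groups. In control guts the largest member of the fin fold sum was hgd, named after its values were seen. It had 172, 77.8 and 102 CPM in transected guts against 226, 97.2 and 216 CPM in control guts. Of the 12 fin fold markers, 9 had a positive and 3 a negative log2 fold change. The groups of 5 did not overlap in the higher direction and of 0 in the lower, against 7.48% and 6.38% of genes tested. DESeq2 called 3 of the fin fold and 2 of the epidermis markers higher, against the same 0.765%. The part of these cells in the lepb difference was not tested.

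Hepatocyte markers are of interest because the liver is known as a leptin source in several fish. Of 17 in the table, 16 were tested, and 0 had a positive and 16 a negative log2 fold change, with a median of -0.67 (edgeR called 0, DESeq2 0). An unadjusted edgeR p below 0.05 was reached by 0 in the higher and 3 in the lower direction, against 4.32% and 3.55% of all genes. They summed to 13747, 7566 and 8414 CPM in transected guts against 22864, 9256 and 15765 CPM in control guts. The sums overlapped between groups, and transected replicate 2 was the lowest of the 6 libraries. The part of hepatocytes in the lepb difference was not tested. hp, the untested member, had 3, 2 and 35 counts in transected guts against 0, 0 and 1 in control guts.

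The sums of 3 other tissues overlapped between groups too. Exocrine pancreas markers, 16 of 17 in the table, summed to 52473, 75330 and 106601 CPM in transected guts against 28557, 92570 and 51509 CPM in control guts (15 genes). Skeletal muscle markers, 16 of 17 in the table, summed to 6049, 2636 and 4901 CPM against 9066, 746 and 3639 CPM. Smooth muscle and fibroblast markers, 11 of 15 in the table, summed to 3418, 2658 and 2077 CPM against 1878, 3270 and 2707 CPM (10 genes).

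The islet hormone genes sst1.1 and gcgb, named after their values were seen, had 0.730 and 0.691 CPM in transected replicate 1, against 12.9 to 44.1 CPM in the other 5 libraries. sst2, a somatostatin gene of the same list, was also low there, with 2.34, 41.5 and 51.4 CPM in transected guts against 15.0, 26.3 and 14.5 CPM in control guts. gcga, a proglucagon gene of that list, was not low in transected replicate 1, with 54.8, 95.6 and 76.5 CPM in transected guts against 54.5, 79.6 and 60.6 CPM in control guts.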

How the data were processed

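Poly(A) RNA libraries (TruSeq stranded mRNA) from 3 transected and 3 control pools of larval guts were sequenced as 100 bp paired-end reads, checked with FastQC 0.11.8 and aligned to danRer11, per the labels' protocols. No source used here names the aligner, counter, annotation or use of strand, so reads of overlapping or antisense genes cannot be told apart. The authors deposited raw counts per gene symbol, with no normalization. Raw reads were not used. Of 15419 symbols, 15253 were found in the RefSeq table (GRCz12tu) by symbol or synonym. No sequence is shown, and coordinates are not given because the builds differ.

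A filter by filterByExpr at its defaults (count of 10, total of 15) and TMM scaling (0.935 to 1.05) came before the fit in edgeR 4.0.16 in R 4.3.3 (robust quasi-likelihood, group as the only term), with Benjamini-Hochberg adjustment over all 11466 genes tested. The SE is the log2 fold change divided by the root of F. Alternatives used DESeq2 1.42.0, limma 3.58.1 (voom), other scalings and filters, robust fitting off, the replicate block, and fewer libraries. The steps were tested on simulated counts. Intervals and the 3-count limit cover counting error only. Likeness to lepb used log2 CPM with a prior count of 2.

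Replicate numbers 1 to 3 occur in both groups. Deviations from the group mean correlated over 11466 genes at 0.450, 0.512 and 0.177 in pairs 1, 2 and 3. Libraries of different numbers gave -0.527 to 0.118, the highest being transected replicate 2 with control replicate 3. Each pair passed the limit of 0.1, and by it the numbers were taken as pairs from the data, least clearly for pair 3. The differently numbered libraries at 0.118 passed it too, so the limit alone does not settle the pairs. In the sample titles a further number is shared within pairs 2 and 3, but not within pair 1, where the transected title lacks it. The pairs entered alternative fits only, and the main fit left them out. Counts of libraries in the same group differed beyond sampling noise, with a chi-square of 26.4 to 243 per degree of freedom, so no library repeats another. The labels call them biological replicates, and p-values measure the spread between these pools only.

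lepb and the 13 gene lists were chosen with earlier results of these data known. Named by rule were the leptin genes, lepr, leprot, leprotl1 (not used here), the JAK2, STAT3 and SOCS3 genes, the 10 genes most like lepb, its 5 neighbours on each side, the 3 members of smallest edgeR p in each of 4 lists that are not cell type markers, and the genes edgeR called, which were plekhs1 and LOC100535095. List members were matched by symbol or an unambiguous synonym.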

Additional observations from a re-analysis of the deposited data

How the results depend on the processing

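The direction of lepb was the same in all 16 alternatives that gave it a value. This follows from the groups not overlapping and is no separate result. Its log2 fold change became a call at 5.44 in DESeq2, 5.30 in DESeq2 with the replicate block and 5.18 without the replicate 1 libraries of both groups. The replicate block in edgeR (5.21, adjusted p = 0.137) changed no call of a named gene in edgeR. The filter of at least 1 CPM in 3 libraries removed lepb and gave it no value. Leaving out 1 library at a time gave 4.38 to 6.17, and a summed count ratio of 22.7 to 86.1, against 42.4 with all libraries (22.7 without transected replicate 2, 86.1 without control replicate 3). lepr and lepa were below the filter. Without a filter, edgeR gave them adjusted p of 0.848 and 0.857, and their few counts give no usable fold change.

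The number of genes called higher was 2 in edgeR, 93 in DESeq2, 159 in DESeq2 with the replicate block, 0 in limma-voom and 99 without the replicate 1 libraries. Genes called lower numbered 0 in edgeR, 61 in DESeq2, 123 in DESeq2 with the replicate block, 1 in edgeR with the replicate block and 172 without the replicate 1 libraries. Without 1 library, 0 to 4 were higher (4 without control replicate 1, 1 without transected replicate 2, 0 without each of the other 4) and 0 to 1 lower (1 without control replicate 1). The causes were not tested. Over all genes, the median log2 fold change under each other scaling lay no more than 0.0101 from that with TMM. Of the 10 genes most like lepb, 5 remained with a prior count of 0.5 and 2 with library size only.

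Signs turned for leprot (-0.019 without transected replicate 3, within -0.019 to 0.11 over single libraries left out) and for jak2a (0.0044 with library size only, 0.0054 without transected replicate 3 and 0.11 without control replicate 2, within -0.13 to 0.11). Depth limits lepb in control guts, where 3 counts in all were seen.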

Other observations

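Genes that, like lepb, were close to 0 in control guts were counted after the values had been seen. Of 2617 genes with at most 3 counts summed over the control libraries, 739 had at least 1 count in transected guts, and 4 had at least 10 counts in every transected library. Those 4 were lepb and the clone-named genes zgc:172053, zgc:113625 and zgc:172131. Both limits lie close to the values of lepb itself, with 3 control counts and 11 in its lowest transected library. Its place among the 4 is therefore no separate result. All 4 entered the edgeR test only through their transected libraries. The reverse count, of genes near 0 in transected guts, was not made. zgc:172053 had 154, 37 and 104 counts in transected guts against 0, 1 and 0 in control guts, with transected replicate 2 lowest where lepb was highest. zgc:113625 had 33, 25 and 43 counts against 0, 0 and 2, and zgc:172131 had 30, 10 and 16 counts against 0, 2 and 0. None of the 4 passed in edgeR over all genes, with adjusted p of 0.387, 0.121, 0.195 and 0.362 for lepb, zgc:172053, zgc:113625 and zgc:172131, where edgeR called 2 genes in all.

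By summed counts in transected guts lepb ranked 3 among these genes, after stc1l and zgc:172053. stc1l, a gene related to stanniocalcin, a calcium-regulating hormone of fish, had 7, 27 and 702 counts in transected guts against 0, 0 and 0 in control guts, so that 1 library held nearly all of them. wnt4b, a Wnt ligand gene, had 4, 31 and 19 counts in transected guts against 2, 1 and 0 in control guts, in the order of lepb among transected libraries. nppb, a natriuretic peptide gene, had 8, 18 and 10 counts against 0, 3 and 0, also highest in transected replicate 2. il19l, a relative of the IL-10 family, had 11, 5 and 19 counts against 2, 1 and 0, with transected replicate 2 lowest. These 4 genes were below the expression filter and were not tested in edgeR.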
